A study of Mus musculus with 20 samples.

Results

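Granul_2 is 1 of 18 clusters that the authors named in a single-cell RNA-seq atlas of mouse kidneys after ischemia-reperfusion injury (IRI). It is the smaller of their 2 granulocyte clusters. Its members were taken as every cell that carries this cluster name in the first of 2 deposited annotations. There were 6864 such cells among 113579, which is 6.04% of all cells. In the second annotation, which adds the libraries of inhibitor-treated mice, the counterpart is Neutro_2 with 7609 of 136794 cells.

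The kidneys came from male C57BL/6J mice aged 10 to 12 weeks. Ischemia was bilateral and lasted 23 min (IRI short) or 30 min (IRI long), and kidneys were collected 1, 3 and 14 d later. There were 2 libraries for each ischemia time and day and 6 Control libraries. In addition, VX765 (a caspase-1 inhibitor, 100 mg/kg) and Liproxstatin (a ferroptosis inhibitor, 10 mg/kg) were each given to IRI long mice by injection into the peritoneum before and daily after ischemia, and 1 library at 14 d came from each compound. The libraries hold all cells of a dissociated kidney, so blood cells left in the vessels after perfusion and cells in the tissue cannot be told apart. A higher percentage of a cluster and a lower number of the other cells cannot be told apart either.

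Granulocytes of the injured kidney are mostly neutrophils, short-lived phagocytes that leave the blood within hours of tissue damage and carry proteases, oxidant-producing enzymes and cytokines. S100a8 and S100a9, the markers given for this cluster, encode the subunits of calprotectin, the calcium-binding protein that fills the neutrophil cytosol. Neutrophils are known as early arrivals after renal ischemia, whereas monocytes and macrophages are known for later clearance and scarring. The tables used here name each cell's cluster and group and place it in a UMAP, a map of the cells in a plane. Expression was not analysed here, so the name was not checked against S100a8 and S100a9.

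Libraries held 2064 to 14320 cells, and this number is the only depth the tables give. Of the 6 Control libraries, 5 share cell barcodes with one another and rarely with IRI libraries, while library norm5 shares them with the IRI libraries. For those 5, a difference from IRI libraries cannot be told apart from a difference between barcode sets. Barcodes found in a second library belonged to 149 Granul_2 cells (2.17%, against 2.40% of all cells). Granul_2 cells of a pair of libraries had the same barcode in only 4 cases.

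Granul_2 was nearly empty in Control kidneys and present in every IRI library. In Control it held 3 cells of 4056 in library norm4, 2 of 6666 in norm5 and 1 of 6609 in norm2. The other 3 Control libraries had none, which allows up to 0.0209% of the cells in Scl, 0.0760% in norm1 and 0.132% in norm3 (counting error only). Over the 6 Control libraries the mean was 0.0198% ± 0.0291 (SD, n = 6).

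One day after IRI short, Granul_2 made up 3.72% ± 0.752 (SD, n = 2) of all cells. At 3 d it made up 4.11% (122 cells, library IRF3) and 6.85% (280 cells, IRF11). At 14 d it made up 6.73% (304 cells, IRF8) and 1.47% (161 cells, IRF10). The pair at 14 d was thus the most uneven, with the highest but one and the lowest value of all 6 IRI short libraries.

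After IRI long, the percentages were 10.1% (614 cells, IRF1) and 4.43% (348 cells, IRF5) at 1 d. They were 10.7% (511 cells, IRF4) and 7.22% (149 cells, IRF7) at 3 d. At 14 d they were 22.9% (1653 cells, IRF9) and 28.9% (2037 cells, IRF12). On each day the lower IRI long library was above the higher IRI short library. At 1 d they lay at 4.43% (IRF5, exact interval 3.99 to 4.91%) and 4.25% (interval 3.85 to 4.68%). At 3 d they lay at 7.22% (IRF7, interval 6.14 to 8.42%) and 6.85% (IRF11, interval 6.10 to 7.67%). These intervals (counting error only) overlapped on both days, so the order was clear only at 14 d, with 22.9% (IRF9) against 6.73% (IRF8). Of the 6 IRI long libraries, 5 lay above every IRI short library, with IRF7 above IRF11 only within counting error. The IRI long mean was 1.95 times the IRI short mean at 1 d, 1.63 times at 3 d and 6.31 times at 14 d. The 2 IRI long libraries at 14 d supplied 53.8% of all Granul_2 cells from 12.6% of all cells.

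**Figure D1:**
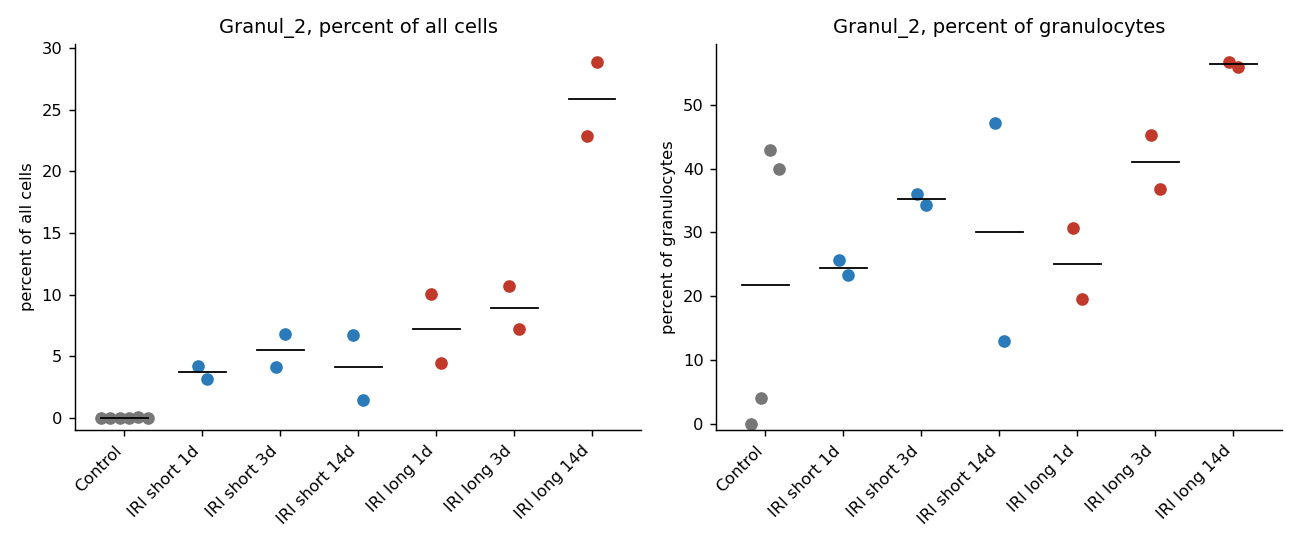
Granul_2 as a percentage of all cells (left) and of the cells in Granul_1 and Granul_2 together (right), with 1 point per library and a line at the group mean. On the left the 2 IRI long libraries at 14 d, at 22.9 and 28.9%, stand above all others, and on the right the 2 IRI short libraries at 14 d lie at 13.0 and 47.1%.

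Over all days IRI short averaged 4.43% ± 2.08 (SD, n = 6). The average of IRI long was 14.0% ± 9.64 (SD, n = 6). The difference to Control was 4.41 percentage points for IRI short and 14.0 for IRI long (both two-sided exact permutation p = 0.00216, adjusted p = 0.00519 over 12 comparisons, with no overlap of groups). The mean of IRI long was 9.59 points above that of IRI short with libraries permuted within their day (exact permutation p = 0.00926, the smallest this design allows, adjusted p = 0.0159). This smallest p is reached only when the IRI long pair is the higher pair on each day. At 1 and 3 d that order lay within counting error. With any 1 of the 4 IRI short libraries of 1 and 3 d left out the difference was 9.34 to 10.1 points, and the adjusted p of the exact permutation test was 0.0556 to 0.0794. The permutation tests compare unweighted means, so leaving out a library, here and below, also changes the mix of days in its group.

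Per immune cell, which leaves tubule cells out of the denominator, Granul_2 was still higher after both injuries. Control libraries averaged 0.156% ± 0.207 (SD, n = 6) and IRI short libraries 8.81% ± 3.01 (SD, n = 6). The average of IRI long was 19.5% ± 10.5 (SD, n = 6), which was 10.7 points above IRI short (exact permutation p = 0.0278, adjusted p = 0.0417). This call was lost without any 1 of the 4 IRI short libraries of 1 and 3 d and without IRF12 of IRI long, with differences of 7.44 to 11.1 points and adjusted p of 0.0556 to 0.0988 (exact permutation). At 3 d the groups overlapped, with 10.3% in IRF7 of IRI long and 10.9% in IRF11 of IRI short.

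Myeloid cells were counted as Granul_1, Granul_2, Mono_1, Mono_2 and Macro. Of these, Granul_2 made up 1.41% ± 2.61 (SD, n = 6) in Control kidneys. After IRI short it made up 12.8% ± 4.52 (SD, n = 6), and after IRI long 24.2% ± 12.9 (SD, n = 6). Both IRI groups differed from Control (exact permutation, adjusted p = 0.00866 for IRI short and 0.00519 for IRI long). The difference of 11.4 points between IRI long and IRI short missed the threshold (exact permutation p = 0.0648, adjusted p = 0.0778). It passed without IRF5 (13.8 points, adjusted p = 0.0333) or IRF7 (13.6 points, adjusted p = 0.0247, exact permutation). Leaving out either library gives 14 d more weight in IRI long, which enters these differences.

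Within granulocytes alone, Granul_2 made up 24.5% ± 1.61 (SD, n = 2) at 1 d, 36.0% (IRF3) and 34.3% (IRF11) at 3 d, and 47.1% (IRF8) and 13.0% (IRF10) at 14 d after IRI short. After IRI long it made up 30.7% (IRF1) and 19.5% (IRF5) at 1 d, 45.2% (IRF4) and 36.8% (IRF7) at 3 d, and 56.7% (IRF9) and 55.9% (IRF12) at 14 d. The 1 d values of both injuries interleaved, while at 3 and 14 d the IRI long pair was higher than the IRI short pair. Only 4 Control libraries held granulocytes, 85 in all, and 6 of these were Granul_2 (7.06%, exact 95% interval 2.63 to 14.7%, counting error only). By library these were 0 of 48 (Scl), 1 of 25 (norm2), 3 of 7 (norm4) and 2 of 5 (norm5), with a mean of 21.7%. Against this mean the differences of 8.18 points for IRI short and 19.1 points for IRI long did not pass (exact permutation, adjusted p = 0.452 and 0.156), and neither did the 10.9 points between IRI long and IRI short (p = 0.0648, adjusted p = 0.0778). Without Scl, norm2, norm4 or norm5 the difference between IRI short and Control was 0.947, 2.28, 15.2 or 14.3 points, and in the second annotation it was 2.31. IRI long against IRI short passed without IRF5, at 15.2 points (exact permutation, adjusted p = 0.0139). Leaving out this 1 d library gives 14 d more weight in IRI long, which enters the 15.2 points.

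A model over all clusters (limma on the logit of each cluster's share of a library) gave the size of the change at each day. Granul_2 was higher than in Control by 5.24 ± 0.59 (logit, SE) at 1 d, 5.62 ± 0.59 at 3 d and 5.09 ± 0.59 at 14 d after IRI short. After IRI long the change was 5.87, 6.16 and 7.44, each ± 0.59 (SE). All 6 passed in limma, with Benjamini-Hochberg adjusted p between 3.53e-09 and 1.39e-06. Most clusters passed in these contrasts: 10 of 18 (55.6%), 13 (72.2%) and 10 (55.6%) for IRI short at 1, 3 and 14 d, and 11 (61.1%), 16 (88.9%) and 13 (72.2%) for IRI long. These sizes rest on the 0.5 cells added to Control libraries with few or no members. With the barcode set as a term they were 4.48 to 6.83, and Control then rests on norm5 alone.

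IRI long and IRI short were 0.63 ± 0.72 (logit, SE) apart at 1 d and 0.54 ± 0.72 apart at 3 d, and neither passed (limma adjusted p = 0.743 and 0.843). The 95% intervals, -0.89 to 2.15 and -0.98 to 2.06, do not show that the injuries acted alike. Every SE of this model, here and below, rests on a spread shared by all 7 groups. The nearly empty Control libraries therefore enter the SE of comparisons among IRI groups too. Without Control library Scl both differences were unchanged and their SE was 0.57 (limma). Leaving out 1 library gave 0.19 (without IRF1) to 1.07 (without IRF5) at 1 d and 0.27 (without IRF3) to 0.81 (without IRF11) at 3 d. Among all 18 clusters 1 (5.56%) passed at 1 d and 0 (0%) at 3 d in limma, where 3 had an unadjusted p under 0.05 and 1 passed on the arcsine scale. At 14 d the difference for Granul_2 was 2.36 ± 0.72 (logit, SE, limma adjusted p = 0.0130), in a contrast where 6 clusters (33.3%) passed. The other 5 were tubule clusters (DCT, LOH, PC, IC) and myofibroblasts (Myofib). The Granul_2 difference was 1.57 without IRF10, the IRI short library with the fewest Granul_2 cells per 100 cells, and then missed the threshold (limma adjusted p = 0.246). Without IRF9 it was 2.51 (limma adjusted p = 0.0571) and without IRF12 2.20 (limma adjusted p = 0.111). With Granul_2 counted per immune cell the difference was 1.92 and did not pass either (limma adjusted p = 0.0699).

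Set against the other myeloid clusters, Granul_2 was more abundant relative to macrophages after IRI long than after IRI short. Macro, the macrophage cluster, made up 6.45 to 15.2% of cells in IRI short and 6.83 to 15.3% in IRI long libraries. There were 1.36 log2 units more Granul_2 than Macro cells at 14 d after IRI long (mean of 2 libraries) and 1.86 log2 units fewer after IRI short. Over the 3 days the log2 ratio of Granul_2 to Macro was 1.57 higher in IRI long than in IRI short (exact permutation within day p = 0.00926, adjusted p = 0.0370 over 4 clusters), and the pairs of libraries did not overlap on any day. Without any 1 of the 4 IRI short libraries of 1 and 3 d it was 1.50 to 1.69 and the adjusted p rose to 0.0741 to 0.111 (exact permutation).

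Against the other granulocyte cluster, Granul_1, the log2 ratio was 0.73 higher in IRI long, which missed the threshold (exact permutation p = 0.0648, adjusted p = 0.0864), and passed without IRF5 at 1.02 (adjusted p = 0.0185, exact permutation). By day the difference between injuries was 0.02 (1 d), 0.35 (3 d) and 1.82 (14 d). Against Mono_1, the larger monocyte cluster, it was 0.94 higher in IRI long (exact permutation, adjusted p = 0.139; 1.27 with adjusted p = 0.0370 without IRF7). This ratio had no fixed direction over days, with 0.72 at 1 d, -0.56 at 3 d and 2.67 at 14 d. Mono_2, the smaller monocyte cluster with 320 cells, gave a ratio 2.46 higher (exact permutation p = 0.0463, adjusted p = 0.0864). It was 3.14 without IRF7 (adjusted p = 0.0185, exact permutation). For each ratio that passed here without IRF5 or IRF7, leaving it out gave 14 d more weight in IRI long.

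**Figure D2:**
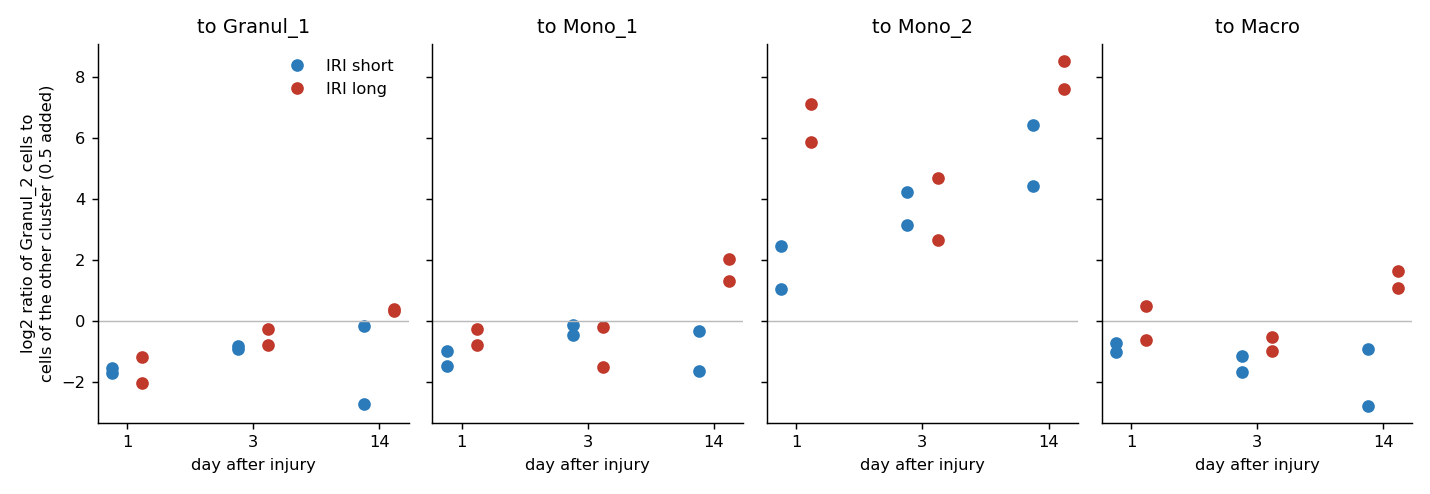
Log2 ratio of the number of Granul_2 cells to the number of cells in Granul_1, Mono_1, Mono_2 and Macro (0.5 cells added to each), with 1 point per library, by day after injury and ischemia time. At 14 d the IRI long libraries lie above the IRI short libraries in all 4 panels, by 1.82 to 3.22 log2 units between means.

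Between the early days and 14 d the cluster's share differed most after IRI long. Its mean percentage of all cells was 4.10% at 14 d and 4.60% at 1 and 3 d after IRI short. After IRI long it was 25.9% at 14 d and 8.10% at 1 and 3 d. With the day permuted within ischemia time, the joint difference of 8.64 points did not pass after adjustment over 2 tests (exact permutation p = 0.0444, adjusted p = 0.0889), and it did without IRF10 (13.1 points, adjusted p = 0.0267, exact permutation). The percentage of granulocytes was 11.8 points higher at 14 d, which did not pass (exact permutation p = 0.147). Without IRF10 this was 21.8 points (adjusted p = 0.0267, exact permutation). Leaving out IRF10 makes IRI long the majority of the 14 d libraries, so both values without it mix ischemia time with day. Within IRI long alone the smallest p this design allows is 0.0667, which the percentage of all cells reached (exact permutation).

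In limma, the change from 1 to 14 d was -0.15 ± 0.72 (logit, SE, adjusted p = 0.942) after IRI short, where 1 of 18 clusters (5.56%) passed. After IRI long it was 1.57 ± 0.72 (adjusted p = 0.0982, unadjusted p = 0.0434), where 6 clusters (33.3%) passed. It passed without Control library Scl (1.57 ± 0.57, SE, limma adjusted p = 0.0320), where the change was the same and only the shared spread was smaller. Without IRF5 the change was 1.13 (limma adjusted p = 0.504). The difference of these changes was 1.72 ± 1.02 (adjusted p = 0.282, limma), with 2 clusters (11.1%) past the threshold, so a different time course of Granul_2 after the 2 injuries was not shown on this scale. It was 0.94 without IRF10 and 2.51 without IRF8 (limma adjusted p = 0.813 and 0.177). On the arcsine scale, which weights large shares more, both the change after IRI long and this difference passed (limma adjusted p = 0.000264 and 0.00622).

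In the authors' UMAP, Granul_2 cells lay almost wholly next to cells of the same cluster, in an area called the island below. Of the 30 nearest cells of a Granul_2 cell, 99.6% on average were Granul_2 and 0.155% were Granul_1, and 6845 of the 6864 cells had mostly Granul_2 neighbours. The share of Granul_1 among the neighbours averaged 0.118% over IRI long and 0.182% over IRI short libraries, a difference that did not pass (exact permutation p = 0.407). Cells between the 2 granulocyte clusters were not counted, and the neighbours of other clusters were not examined. UMAP distances carry no unit, and the map was made from the same expression data as the clusters.

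The island was elongated along UMAP_2 (SD 1.93, against 0.638 along UMAP_1), and cells of different days occupied different stretches of it. This position was examined after the map had been seen. At 1 d the library medians of UMAP_2 averaged 0.536 after IRI short, and were 0.246 (IRF1) and 0.336 (IRF5) after IRI long. At 3 d they were -0.775 (IRF3) and -1.27 (IRF11) after IRI short, and -1.19 (IRF4) and -0.912 (IRF7) after IRI long. At 14 d they were -3.16 (IRF8) and -1.18 (IRF10) after IRI short, and -3.85 (IRF9) and -3.78 (IRF12) after IRI long. All 1 d libraries lay above all 3 d libraries, and all 14 d libraries except IRF10 lay below all 3 d libraries.

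**Figure D3:**
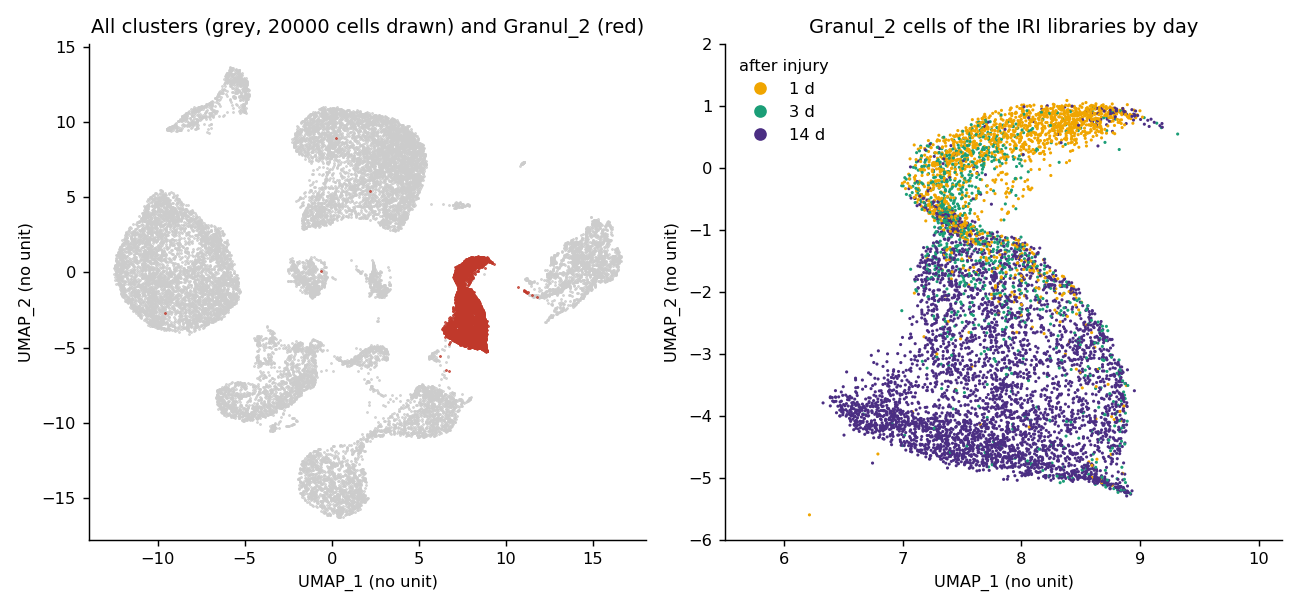
UMAP of a random draw of all cells with the Granul_2 cells in red (left) and the Granul_2 cells of the IRI libraries by day (right); axes are the deposited coordinates, without unit. Cells of 1 d fill the upper end of the island and cells of 14 d the lower part, with library medians of UMAP_2 between 0.246 and 0.551 at 1 d and between -3.85 and -1.18 at 14 d.

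The mean of the library medians was 2.68 units lower at 14 d than at 1 and 3 d (-2.99 against -0.312, exact permutation within ischemia time p = 0.00889, adjusted p = 0.0178 over 2 tests). Leaving out IRF8, IRF9 or IRF12 gave a shift of -2.62, -2.39 or -2.42 with an adjusted p of 0.0533 each (exact permutation). IRI long minus IRI short, permuted within day, was -0.639 and did not pass (exact permutation p = 0.0648). It passed without IRF1, IRF5 or IRF7, at -0.993, -1.01 and -0.761 (adjusted p = 0.0463, 0.0463 and 0.0278, exact permutation). Leaving out a library makes days or ischemia times uneven between the sets compared, so each such shift reflects that mix too.

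The change was in the occupancy of both ends. The upper 25% of all Granul_2 cells along UMAP_2 (above -0.488) held 72.0 to 84.1% of each library's Granul_2 cells at 1 d, 30.3 to 41.0% at 3 d, and 0.363 and 0.491% at 14 d after IRI long. The lower 25% (below -4.04) held 0.287 to 1.49% at 1 d, 6.65 to 12.1% at 3 d, and 42.7 and 37.1% at 14 d after IRI long. Both limits come from all Granul_2 cells pooled, and IRI long at 14 d supplied 53.8% of these cells. The percentages therefore describe the same shift and are not separate support for it. After IRI short, the 14 d libraries parted: IRF8 had 6.25% of its cells at the upper end and 38.8% at the lower end, whereas IRF10 had 38.5 and 18.6%. IRF10 is also the IRI library in which Granul_2 was the smallest share of granulocytes.

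**Figure D4:**
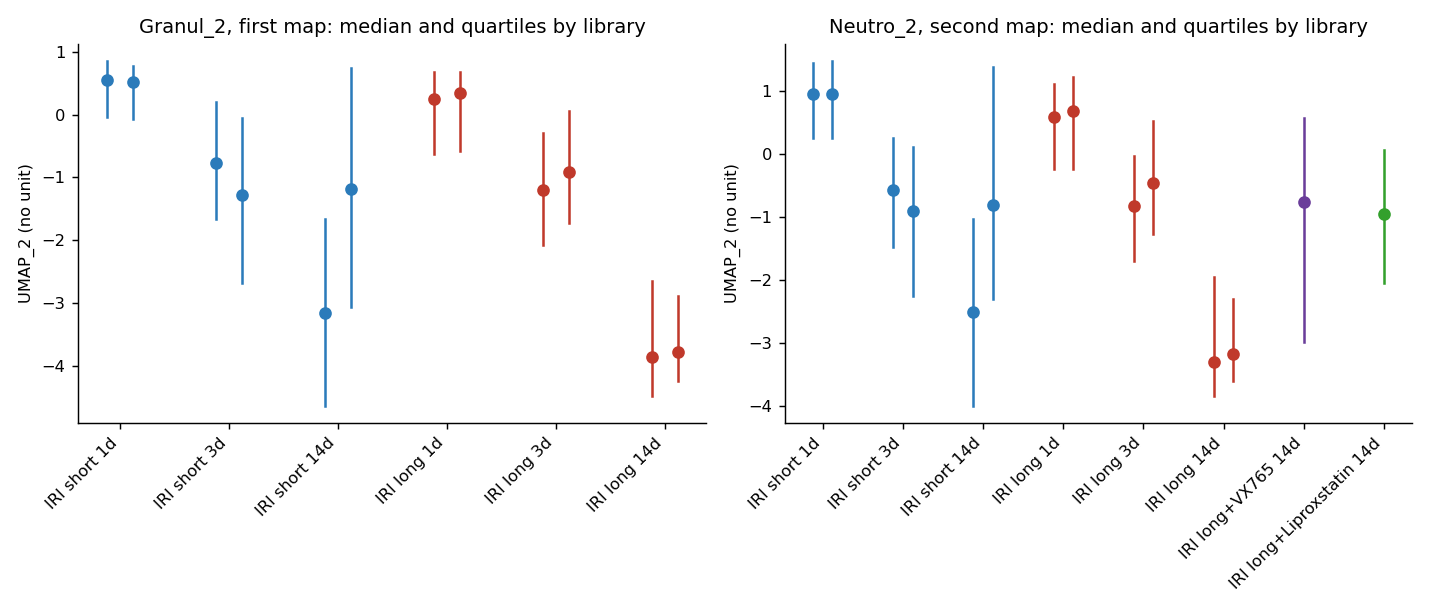
Median (point) and quartiles (line) of UMAP_2 over the Granul_2 cells of each library in the first map (left) and over the Neutro_2 cells in the second map (right). In both maps the medians run from 1 d at the top to IRI long at 14 d at the bottom, and the inhibitor-treated libraries, at -0.767 and -0.959, lie within or just below the range of the 3 d libraries.

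The medians of the other myeloid clusters with enough cells moved far less. The library medians of Granul_1 stayed between 0.411 and 0.716, and their mean at 14 d was 0.0173 units from that at 1 and 3 d. The shift was 0.0476 units for Mono_1 and 0.00756 units for Macro. The difference between the Granul_2 median and the Granul_1, Mono_1 or Macro median of the same library shifted by -2.70, -2.73 and -2.69 units (exact permutation, adjusted p = 0.00889 each over 3 tests), and all 3 passed without any single library. Because the other medians barely moved, the 3 tests restate the Granul_2 shift and are not separate support for it. The spread of each cluster along UMAP_2 was not taken into account. Between 1 and 14 d the Granul_2 medians moved 2.71 units after IRI short and 4.11 after IRI long, against a median of 0.260 and 0.295 over the 16 clusters with enough cells. GEC (glomerular endothelial cells) moved farther after both injuries and PT S3 (the straight part of the proximal tubule) after IRI short. No test set Granul_2 against clusters outside the myeloid group, and the genes behind its position, the depth per cell and the cell cycle were not analysed here.

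The second annotation kept the cluster nearly whole. Of the 6864 Granul_2 cells 6789 were named Neutro_2, 27 Neutro_1, 16 PST and 11 DCT1, and the remaining few carried other names. In the libraries with at least 10 Granul_2 cells, 97.5 to 99.4% of them became Neutro_2. In the opposite direction, Neutro_2 took in 653 cells of the 18 libraries that the first annotation had placed elsewhere. Of these, 323 came from Granul_1, 259 from PT S3 and 44 from T cell_2.

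The PT S3 cells that became Neutro_2 came almost wholly from IRI long at 14 d. Library IRF12 gave 230 of its 673 PT S3 cells (34.2%) and IRF9 gave 28 of 366 (7.65%), while all other libraries gave 1 cell together, in a Control kidney. In the first map these 259 cells lay among the proximal tubule cells (median -10.3 on UMAP_1, against 7.77 for Granul_2). In the second map all 259 had at least 50% Neutro_2 cells among their 30 nearest. These neighbours can be the renamed cells themselves, so the count does not show that they lay among the former Granul_2 cells. Their median on UMAP_1 of the second map was 8.74, against 9.71 for the Neutro_2 cells that came from Granul_2. The Neutro_2 percentages of the IRI long libraries at 14 d, 24.0% in IRF9 and 32.5% in IRF12, include them. Whether they carry tubule genes, neutrophil genes or both was not tested.

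With Neutro_2 in place of Granul_2, the position along UMAP_2 had the same order in the second map. Medians were 0.574 to 0.952 at 1 d, -0.912 to -0.472 at 3 d, -2.50 (IRF8) and -0.808 (IRF10) at 14 d after IRI short, and -3.30 (IRF9) and -3.17 (IRF12) at 14 d after IRI long. The shift at 14 d was -2.27 with the mean in place of the median in the first map and -2.49 with the median in the second map.

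In the inhibitor-treated kidneys at 14 d, Neutro_2 was a small share of all cells. VX765 is known to block caspase-1, the protease that activates interleukin-1β and gasdermin D, and Liproxstatin is known to stop lipid peroxidation. Neutro_2 held 135 of 10610 cells with VX765 (1.27%, exact 95% interval 1.07 to 1.50%) and 32 of 12605 with Liproxstatin (0.254%, interval 0.174 to 0.358%). The 2 IRI long libraries at 14 d without a named compound held 24.0 and 32.5%, and the Control libraries held 0 to 0.0880%. The IRI long mean of 28.3% includes the PT S3 cells named Neutro_2. Relative to this mean, the percentage was 22.2 times lower with VX765 and 111 times lower with Liproxstatin. These compare libraries, not treatments, since each compound had 1 library, and intervals cover counting error only. The study gave the compounds in a second set of experiments that had a vehicle group, and no library here is labelled as vehicle. Compound, injection and experiment therefore cannot be told apart.

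**Figure D5:**
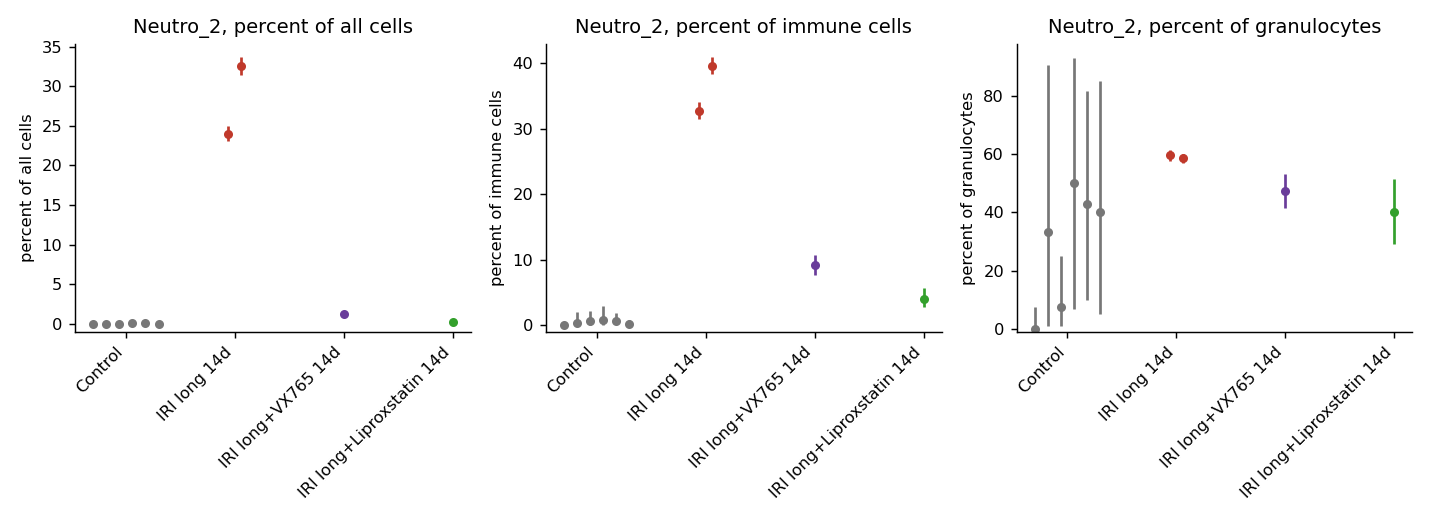
Neutro_2 as a percentage of all cells, of immune cells and of granulocytes in Control, IRI long at 14 d and the inhibitor-treated libraries, with 1 point per library and exact 95% binomial intervals (counting error only). The inhibitor-treated libraries lie at 1.27 and 0.254% of all cells, but at 47.4 and 40.0% of granulocytes, against 58.6 and 59.6% in IRI long.

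The gap depended on the denominator. Per immune cell, Neutro_2 made up 9.16% with VX765 and 4.06% with Liproxstatin, against 32.8 and 39.6% in IRI long. Per granulocyte it made up 47.4% with VX765 (interval 41.5 to 53.3%) and 40.0% with Liproxstatin (interval 29.2 to 51.6%), against 58.6 and 59.6% in IRI long. Behind these percentages stand 285 granulocytes with VX765 and 80 with Liproxstatin, against 2914 (IRF9) and 3917 (IRF12).

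Their Neutro_2 cells also lay elsewhere in the cluster. The median of UMAP_2 was -0.767 with VX765 and -0.959 with Liproxstatin, in the range of the 3 d libraries or just below it and above both IRI long libraries at 14 d. IRF10, of IRI short at 14 d, lay at -0.808. At the upper end of the cluster (above -0.129) lay 45.2% of the Neutro_2 cells with VX765 and 28.1% with Liproxstatin, against 0.806 and 0.349% in IRI long at 14 d and 41.5% in IRF10. The lower end held 19.3% with VX765 and 12.5% with Liproxstatin, against 45.7 and 35.1% in IRI long at 14 d and 16.9% in IRF10. The limits of both ends come from all Neutro_2 cells pooled. The 32 cells of the Liproxstatin library set wide limits on its value, and no test was possible with 1 library.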

How the data were processed

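Mouse kidneys were profiled with 10x 3′ single-cell RNA-seq. Per the methods, the authors aligned reads to mm10 with Cell Ranger, set limits on genes per cell and on mitochondrial reads, removed doublets with DoubletFinder, integrated libraries with LIGER, clustered the cells and named clusters by hand. The deposited UMAP coordinates are a score without unit. The deposited cluster and group names are labels. How the second annotation was made is not given in the sources used here for this number of cells. Members and lists were chosen with earlier results of these data known.

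Libraries were read from cell names and assigned to groups by the deposited group label, with the library as replicate. The values of 1 IRI short library are given only within its group. The study describes 2 mice for each ischemia time and day and 6 controls, so the 18 libraries of the first annotation were taken as separate mice. Differences in percentages were tested by two-sided exact permutation and adjusted by Benjamini-Hochberg, and clusters with limma 3.58.1 in R 4.3.3 (logit, 0.5 cells added, 7 group means, threshold 0.05), tested on simulated data. Positions needed at least 10 cells. Immune cells of the first annotation were the granulocyte, monocyte, macrophage, T and B cell clusters. In the second annotation they were Neutro_1, Neutro_2, Macro, Fibro, T cell, B cell and NK. Fibro, which holds 94.1% of Mono_1, was counted as myeloid. Exact intervals are Clopper-Pearson at 95%. The clusters named are Granul_2, Neutro_2, the other myeloid clusters and those met in renaming or displacement, the last chosen after their values were seen. Computation used python 3.11.15, numpy 2.4.6, pandas 2.3.3, scipy 1.17.1 and matplotlib 3.10.9. Alternatives were the logit, centred log-ratio and arcsine scales, an immune denominator, a filter of 10 cells in 2 libraries, the second annotation, the barcode set, 1 cell added, 100 nearest cells and leaving out each library.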

Additional observations from a re-analysis of the deposited data

Results flagged for a closer look

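Of 22 measures examined within Control, IRI short and IRI long for a library far from the others of its group, 1 passed Dixon's 95% limit, and chance passes about 1 in 20. Control library norm4 had 6.67% Granul_2 among its myeloid cells, which is 3 of 45 cells, while the other Control libraries had at most 1.02%.

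A signal lay outside Granul_2 of the first annotation, in cells that the Neutro_2 percentages above include. The second annotation put 230 PT S3 cells of IRF12 and 28 of IRF9, both IRI long at 14 d, in Neutro_2, against at most 1 cell in a Control library.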

How the results depend on the processing

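No paired analysis was possible because the library names in the deposited tables carry no replicate number. The increase over Control per cell, per immune cell and per myeloid cell kept its direction and passed on the logit scale, in the second annotation and without any single library. Against norm5 alone it was 4.40 (IRI short) and 14.0 points (IRI long) per cell, with no test. At 14 d, IRI long against IRI short was 1.92 per immune cell (limma, logit, adjusted p = 0.0699). The percentage of granulocytes in IRI long minus IRI short was 12.4 points and passed in the second annotation (exact permutation, adjusted p = 0.0494). On the arcsine scale the change from 1 to 14 d after IRI long, 0.266, and its difference from IRI short, 0.267, passed. The same change after IRI short, near 0, turned to 0.0225 with the centred log-ratio. The ratio of VX765 to IRI long was 0.253 per immune cell and 0.802 per granulocyte, in place of 0.0450 per cell, and that of Liproxstatin 0.112 and 0.677, in place of 0.00898. The cause of these moves was not tested beyond the change of scale or denominator itself.

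Leaving out each library in turn, IRI long minus IRI short ranged from 6.62 to 11.5 points per cell, 7.44 to 12.6 per immune cell, 7.71 to 13.8 per myeloid cell and 7.53 to 15.2 per granulocyte. The log2 ratio ranged from 0.45 to 1.02 (Granul_1), 0.56 to 1.27 (Mono_1), 1.94 to 3.14 (Mono_2) and 1.27 to 1.80 (Macro). The 14 d difference ranged from 4.01 to 13.1 points of all cells and 7.26 to 21.8 of granulocytes, and in limma from 1.57 to 3.14 for IRI long against IRI short and from -0.94 to 0.64 for 14 d against 1 d after IRI short, where it turned positive without IRF10. The same change after IRI long ranged from 1.13 to 2.01 and its difference from IRI short from 0.94 to 2.51. The shift along UMAP_2 ranged from -3.28 to -2.39 (14 d) and from -1.09 to -0.174 (IRI long minus IRI short). Fewer libraries also allow fewer arrangements in these exact tests. The means in these tests are not weighted by day or ischemia time. Part of each such range can therefore come from the uneven mix that is left.

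The number of clusters called moved by over 1.5 times in some contrasts. On the arcsine scale it went from 1 to 3 at 1 d and from 0 to 1 at 3 d (IRI long against IRI short), and from 2 to 4 for the difference of time courses. Per immune cell it went from 6 to 0 for IRI long against IRI short at 14 d, from 10 to 5 for IRI short at 14 d against Control, from 6 to 3 for 14 d against 1 d after IRI long, and from 2 to 1 for the difference. In the second annotation it went from 1 to 0 at 1 d and for 14 d against 1 d after IRI short, from 6 to 3 after IRI long, and from 2 to 0 for the difference. Without single libraries it was 0 to 6 for IRI long against IRI short at 14 d, 5 to 13 for IRI short at 14 d against Control, 2 to 7 for 14 d against 1 d after IRI long, 0 to 2 after IRI short and 0 to 2 for the difference. Each day of each injury had 2 libraries, and the 95% intervals between injuries at 1 and 3 d include 0.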
